A study of Homo sapiens with 2 samples.

Results

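The genes of sterol and fatty acid synthesis, with the SREBP and LXR genes that control them, were examined in U87 cells after silencing of HOXD9. The set was given as 40 gene symbols. It holds 5 SREBP regulators, 17 genes of cholesterol synthesis, 4 of cholesterol transport and storage, 4 LXR regulators and targets, and 10 of fatty acid synthesis. Of the 40, 35 had at least 1 probe set that the platform annotation gives to that gene alone, 86 probe sets in all. NR1H2, FDFT1, CYP51A1, FADS1 and ACSL3 were not analysed here. U87 cells are an established line from a human glioblastoma. The data are 1 array of cells transfected with HOXD9 siRNA-2 and 1 of cells transfected with a non-silencing control siRNA, each at 50 nM, with RNA taken on Day 2, and arrays of HOXD9 siRNA-1 were not analysed here. Because each condition is a single array, differences between conditions have neither an SD nor a test, and a difference between the arrays cannot be told apart from one between the conditions.

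Cholesterol is built from acetyl-CoA through mevalonate, the isoprenoid farnesyl diphosphate, squalene and lanosterol, by enzymes mostly of the endoplasmic reticulum. SREBP transcription factors turn on the genes of this route and of fatty acid synthesis. They are made as membrane proteins, and when sterols are scarce SCAP escorts them to the Golgi, where proteases release the active part. When sterols are plentiful, INSIG proteins hold SCAP in the endoplasmic reticulum. The liver X receptors (LXR) act in the opposite state. They are switched on by oxysterols and raise genes of cholesterol export and of reduced uptake, such as ABCA1 and MYLIP. Glioblastoma cells are known for a high demand for lipids.

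Values are the deposited linear signals of Affymetrix U133 Plus 2.0 probe sets, in arbitrary units, and every ratio is HOXD9 siRNA-2 divided by control siRNA. Over all 54613 probe sets the median signal was 18.3 with HOXD9 siRNA-2 and 22.5 with control siRNA. Among 11624 genes above the signal filter (mean signal of at least 19.8, the median of all probe sets) the median log2 ratio was -0.25, so each ratio is also given relative to that median. Centering each array on its own median would add 0.30 to every log2 ratio. Background was read from 27 probe sets against Bacillus subtilis RNA, whose highest signal was 18.4 with HOXD9 siRNA-2 and 11.4 with control siRNA, and 18.4 was used for both arrays. HOXD9 itself read 5.58 with HOXD9 siRNA-2 and 19.7 with control siRNA on the brighter of its probe sets. Against that background it was at least 1.07-fold lower, a bound that falls under 1 after centering, so these arrays do not bound a decrease of HOXD9 on a common scale. Its other probe set read 11.4 with HOXD9 siRNA-2 and 9.33 with control siRNA, within the background on both arrays. Of the markers of a glial and mesenchymal glioma line, VIM read 10823 with HOXD9 siRNA-2 and 11349 with control siRNA on its brighter probe set. CD44 read 5012 with HOXD9 siRNA-2 and 5638 with control siRNA on its brightest. NES read 70.6 with HOXD9 siRNA-2 and 116 with control siRNA on its brighter one, whereas all 9 probe sets of GFAP, S100B and SOX2 stayed at or under 19.2. Of 26 probe sets for markers of blood, endothelial, neural and liver cells, 1 passed the filter, for PECAM1.

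Sterol and fatty acid synthesis genes stood slightly above the typical gene after HOXD9 silencing, and INSIG1 stood furthest above. STARD4, SOAT1 and NPC1 of cholesterol transport and storage and the LXR targets ABCA1 and MYLIP stood below it, whereas NPC2 stood close to it. On the brightest probe sets, MYLIP and STARD4 alone lay below it by more than the probe-set spread of 0.41 described below. Of the 34 genes above the filter, 24 (70.6%) had a log2 ratio above the median of all genes, a median that 50% of genes exceed by construction. A log2 ratio above 0 was found in 13 of the 34, against 16.8% of all genes. MYLIP was the 1 member past 2-fold (2.94% of the 34, against 5.46% of all genes in either direction). It was lower, as were 4.95% of all genes, and no member was higher by more than 2-fold, as 0.516% of all genes were. After centering MYLIP no longer passed 2-fold and INSIG1 did, on the higher side. Of the 71 probe sets of members above the filter, 1 was lower by more than 2-fold and 0 were higher, against 6.69% and 0.615% of all such probe sets. The median log2 ratio of the members was -0.11, against -0.25 for all genes. The members had a median signal of 325 and all genes one of 198, as means of both arrays.

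**Figure D1:**
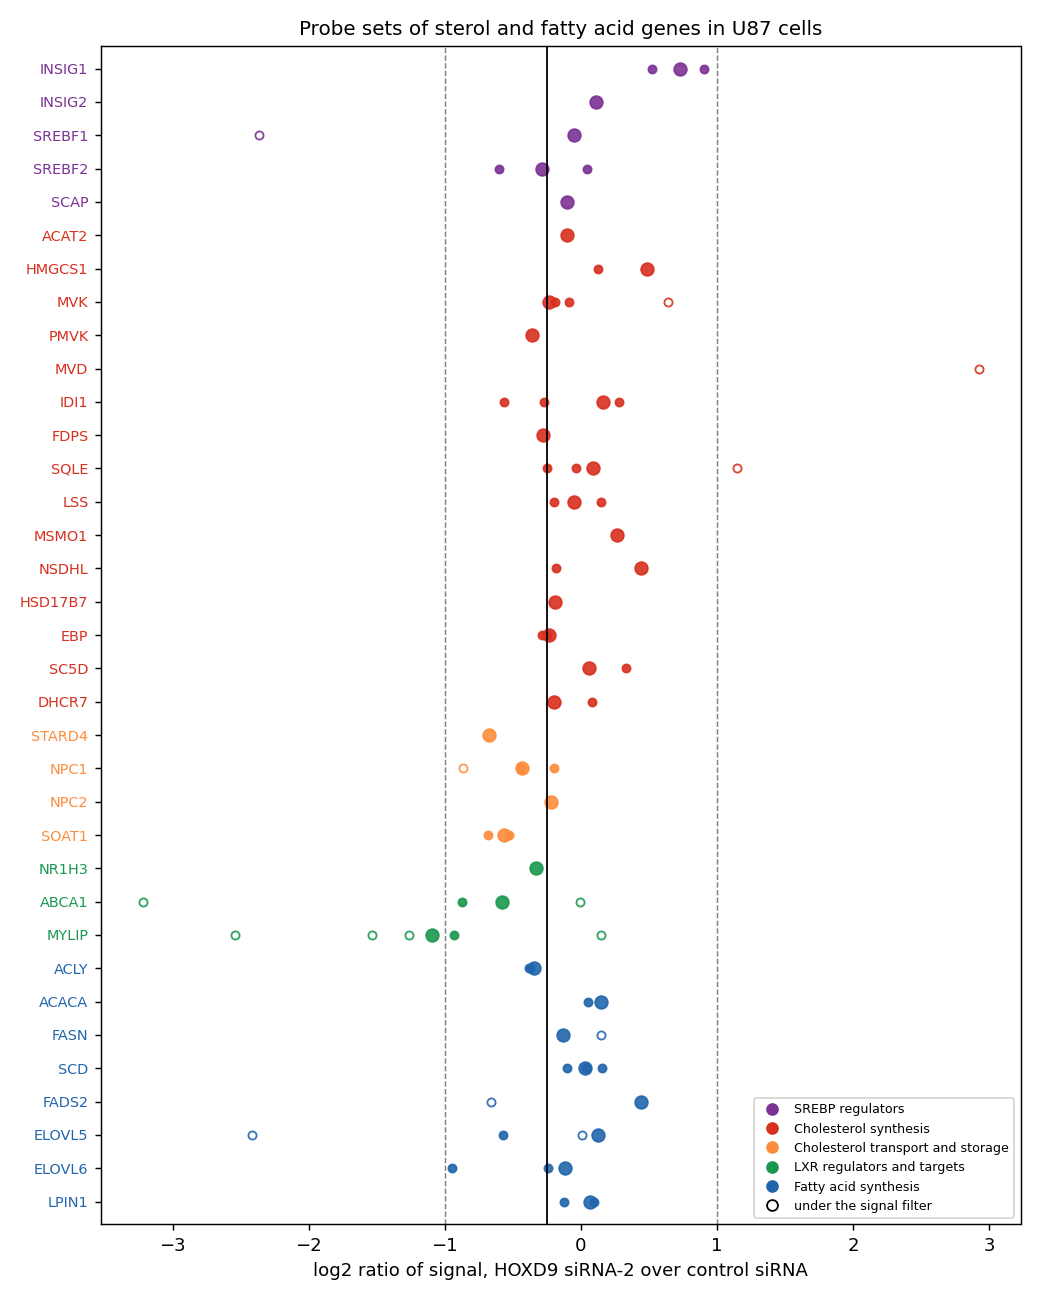
Probe sets of the 35 genes with a named probe set (y axis, colored by class) are placed by log2 ratio (x axis, HOXD9 siRNA-2 divided by control siRNA). Large filled points are the brightest probe set of a gene, small filled points others above the signal filter, and open points those under it, most of them with a signal within the background. The solid line is the median of all genes (-0.25) and dashed lines mark 2-fold. All 3 INSIG1 points lie to the right of 0.5, and the large points of STARD4, SOAT1, ABCA1 and MYLIP lie left of -0.5.

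The only spread that these data give is the disagreement of different probe sets for the same gene. Such probe sets share both arrays, so their spread holds no variation between arrays or cultures. It is a yardstick for reading a value and not an error of the difference between conditions. The pooled SD of log2 ratios among probe sets of 1 gene was 0.41 over 6081 genes, and 0.23 over the 21 members with at least 2 probe sets above the filter. Relative to the median of all genes, 6 of the 34 members lay higher by more than 0.41, namely INSIG1, HMGCS1, FADS2, NSDHL, MSMO1 and IDI1, and 8.21% of all genes did so. MYLIP and STARD4 were the 2 members lower by more than 0.41, as were 14.3% of all genes. ACACA, at 0.40 above that median, lay just inside this limit and IDI1, at 0.41, just outside it, and STARD4 was outside by little, at -0.43. The other 26 members lay within this spread of the median. The member probe set just inside the signal filter was one of EBP with a mean signal of 21.2, and the one just outside was one of SQLE with 17.7.

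INSIG1, which retains SCAP in the endoplasmic reticulum and is itself a target of SREBP, was the member with the highest ratio. Its brightest probe set gave a signal of 1641 with HOXD9 siRNA-2 and 993 with control siRNA, 1.65-fold higher. The second gave 1290 with HOXD9 siRNA-2 and 688 with control siRNA, or 1.87-fold, and the third gave 307 with HOXD9 siRNA-2 and 214 with control siRNA, or 1.44-fold. All 3 probe sets were thus brighter on the HOXD9 siRNA-2 array, at signals far over the background. Their log2 ratios of 0.73, 0.91 and 0.52 lay 0.98, 1.16 and 0.77 above the median of all genes, each further than the probe-set spread of 0.41. Of all genes, 1.08% had a higher ratio than INSIG1. After centering, the brightest and second probe sets passed 2-fold, at 1.03 and 1.21, and the third stood at 0.82.

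The other SREBP regulators lay closer to the typical gene. INSIG2, the related retention protein whose gene is not raised by SREBP in the same way, gave 413 with HOXD9 siRNA-2 and 383 with control siRNA on its 1 probe set, a log2 ratio of 0.11. SCAP, the escort and sterol sensor, gave 279 with HOXD9 siRNA-2 and 300 with control siRNA, a log2 ratio of -0.10. SREBF1, which encodes the SREBP-1 isoforms best known for fatty acid synthesis, gave 75.7 with HOXD9 siRNA-2 and 78.2 with control siRNA, a log2 ratio of -0.05. A dimmer SREBF1 probe set read 4.90 with HOXD9 siRNA-2 and 25.2 with control siRNA, and since 4.90 lies within the background it was at least 1.37-fold lower, or 1.11-fold after centering. SREBF2, which encodes the isoform best known for cholesterol synthesis, gave 80.6 with HOXD9 siRNA-2 and 98.2 with control siRNA on its brightest probe set and 64.1 with HOXD9 siRNA-2 and 97.2 with control siRNA on the next, with log2 ratios of -0.28 and -0.60. The third gave 49.2 with HOXD9 siRNA-2 and 47.7 with control siRNA, a log2 ratio of 0.04. The 3 SREBF2 probe sets lie on both sides of the median of all genes, each by at most 0.35, and after centering they stood at 0.02, -0.30 and 0.34. The median of the 5 SREBP regulators lay 0.20 above that of all genes.

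The upstream sequences of INSIG1, the member with the highest ratio, and of SREBF2 are shown because they hold matches to motifs of factors of this pathway. RefSeq start sites of build GRCh38.p14 were found for 36 of the 40 members, with 52 windows of the 250 bases upstream of a start. They were searched on both strands for the sterol regulatory element TCACNCCAC, the CCAAT box (CCAAT), which binds NF-Y, the palindromic E-box CACGTG, and the LXR element, AGGTCA repeated after a gap of 4 bases. ACAT2, FDFT1, SQLE and FASN were not searched. Matches of different motifs did not overlap, and a match describes letters, not measured binding. Each sequence is written 5′ to 3′ on the strand of its gene, with motif matches in capitals. A CCAAT box on the other strand reads ATTGG. The INSIG1 window (chr7:155297628-155297877, plus strand) holds a CCAAT box that begins 170 bases and an E-box that begins 55 bases upstream of the start. The SREBF2 window (chr22:41832855-41833104, plus strand) holds a sterol regulatory element at 133 bases and a CCAAT box at 106.
INSIG1: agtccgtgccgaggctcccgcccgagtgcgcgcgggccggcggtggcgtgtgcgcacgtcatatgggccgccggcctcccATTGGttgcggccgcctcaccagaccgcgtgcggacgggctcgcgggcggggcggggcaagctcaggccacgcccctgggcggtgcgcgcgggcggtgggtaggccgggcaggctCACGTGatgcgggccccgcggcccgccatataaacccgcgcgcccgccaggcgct
SREBF2: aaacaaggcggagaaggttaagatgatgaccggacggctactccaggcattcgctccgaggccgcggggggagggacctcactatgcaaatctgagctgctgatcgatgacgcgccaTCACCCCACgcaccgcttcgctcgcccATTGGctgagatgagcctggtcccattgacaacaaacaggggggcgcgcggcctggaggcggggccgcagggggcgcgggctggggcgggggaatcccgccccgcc

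Cholesterol synthesis genes stood mostly above the typical gene by small amounts. Of the 14 above the filter, 12 (85.7%) had a ratio above the median of all genes. On the HOXD9 siRNA-2 array itself 6 (42.9%) were brighter, as were 16.8% of all genes. Their median log2 ratio was -0.08, or 0.17 above that of all genes, and none passed 2-fold in either direction. Log2 ratios ran from -0.36 for PMVK to 0.48 for HMGCS1.

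HMGCS1, the synthase that makes HMG-CoA at the head of the mevalonate route, gave 138 with HOXD9 siRNA-2 and 98.5 with control siRNA on its brighter probe set, a log2 ratio of 0.48. Its other probe set gave 118 with HOXD9 siRNA-2 and 108 with control siRNA, or 0.12. Both probe sets were brighter with HOXD9 siRNA-2. They lay 0.73 and 0.37 above the median of all genes, the second within the spread of 0.41. NSDHL, which removes C4 methyl groups from sterols together with MSMO1, gave 346 with HOXD9 siRNA-2 and 256 with control siRNA on its brighter probe set, a log2 ratio of 0.44. The dimmer NSDHL probe set gave 186 with HOXD9 siRNA-2 and 212 with control siRNA, or -0.19, which is close to the typical gene. The NSDHL value therefore rests on 1 of 2 probe sets. MSMO1, the sterol C4 methyl oxidase, gave 852 with HOXD9 siRNA-2 and 708 with control siRNA on its only probe set, a log2 ratio of 0.27 that lies 0.52 above the median of all genes.

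IDI1 interconverts the isoprenoid units that are joined to farnesyl diphosphate. It gave 559 with HOXD9 siRNA-2 and 500.4 with control siRNA on its brightest probe set and 546 with HOXD9 siRNA-2 and 450 with control siRNA on the next, with log2 ratios of 0.16 and 0.28. Its other 2 probe sets above the filter gave -0.27 and -0.57, at signals of 88.3 and 33.0 with HOXD9 siRNA-2, against 106 and 49.0 with control siRNA. The 2 bright IDI1 probe sets lay above the typical gene and the 2 dimmer ones close to or below it. Of the 4, all but the dimmest are of the _x_at type, which can bind several transcripts. SQLE, squalene epoxidase, gave 534 with HOXD9 siRNA-2 and 502 with control siRNA, a log2 ratio of 0.09, and -0.04 and -0.25 on its 2 dimmer probe sets above the filter. The SQLE probe set under the filter read 24.4 with HOXD9 siRNA-2 and within the background with control siRNA, at least 1.32-fold higher. SC5D, which sets the C5 double bond, gave 184 with HOXD9 siRNA-2 and 177 with control siRNA, a log2 ratio of 0.06, and 23.9 with HOXD9 siRNA-2 and 19.1 with control siRNA on its dimmer probe set, or 0.33. The remaining 8 genes, ACAT2, MVK, PMVK, FDPS, LSS, HSD17B7, EBP and DHCR7, had log2 ratios from -0.36 to -0.05. Of these PMVK and FDPS alone lay below the median of all genes, by 0.11 and 0.03. EBP, MVK, DHCR7 and HSD17B7 were almost on that median, above it by 0.02, 0.02, 0.06 and 0.06. ACAT2 and LSS lay 0.15 and 0.20 above it. The only HSD17B7 probe set is also of the _x_at type. MVD did not pass the filter. It read 25.2 with HOXD9 siRNA-2 and 3.33 with control siRNA, at least 1.37-fold higher against the background.

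**Figure D2:**
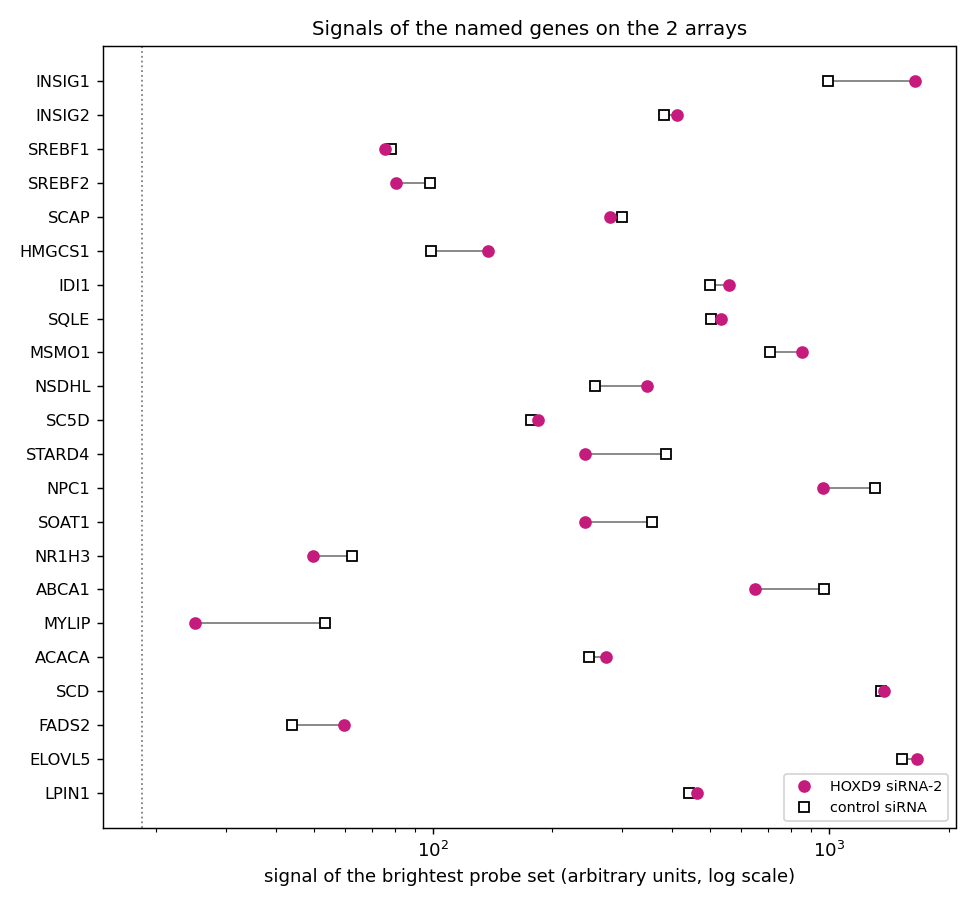
Signal of the brightest probe set (x axis, arbitrary units on a log scale) of the 22 named genes (y axis) with HOXD9 siRNA-2 (filled circles) and control siRNA (open squares). The dotted line marks the background of 18.4. The filled circle lies furthest to the right of its square for INSIG1, HMGCS1, FADS2 and NSDHL and furthest to the left for MYLIP, STARD4, ABCA1, SOAT1 and NPC1.

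HMGCS1, NSDHL and MSMO1, the cholesterol synthesis genes with the highest ratios, are shown with their upstream windows. The first listed HMGCS1 window (chr5:43313413-43313662, minus strand) holds 2 CCAAT boxes, at 155 and 100 bases, and the second listed window holds none of the motifs. The NSDHL window (chrX:152830813-152831062, plus strand) holds 5, at 228, 138, 113, 110 and 84 bases, of which those at 113 and 110 overlap on opposite strands. The MSMO1 window (chr4:165327419-165327668, plus strand) holds 4, at 185, 139, 76 and 34 bases.
HMGCS1: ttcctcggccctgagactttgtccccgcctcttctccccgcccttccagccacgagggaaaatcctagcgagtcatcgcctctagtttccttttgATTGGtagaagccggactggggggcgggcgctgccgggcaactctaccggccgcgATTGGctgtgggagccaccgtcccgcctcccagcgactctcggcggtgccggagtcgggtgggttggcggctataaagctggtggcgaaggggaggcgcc
NSDHL: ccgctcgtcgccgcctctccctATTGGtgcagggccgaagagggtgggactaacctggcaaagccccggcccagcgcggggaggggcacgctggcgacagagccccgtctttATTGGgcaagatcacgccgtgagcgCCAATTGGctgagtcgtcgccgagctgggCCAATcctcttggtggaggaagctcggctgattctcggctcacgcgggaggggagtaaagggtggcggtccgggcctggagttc
MSMO1: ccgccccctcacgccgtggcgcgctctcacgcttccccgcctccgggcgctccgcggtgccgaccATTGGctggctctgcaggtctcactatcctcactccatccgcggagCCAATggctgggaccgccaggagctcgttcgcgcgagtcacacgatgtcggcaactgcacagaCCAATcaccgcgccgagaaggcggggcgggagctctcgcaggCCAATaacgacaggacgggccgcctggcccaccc

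CCAAT boxes were frequent upstream of cholesterol synthesis genes. At least 1 window held one in 12 of 14 such genes (85.7%), at least 2 boxes stood in a window of 9 (64.3%) and at least 3 in a window of 7 (50.0%). Among 15843 protein-coding genes of the table these shares were 40.2%, 13.7% and 4.42%. Overlapping boxes were counted separately throughout. IDI1 reached 3 boxes in this way, because those at 132 and 129 bases overlap on opposite strands. The fatty acid synthesis genes had a box in 5 of 9 (55.6%), the transport and storage genes in 3 of 4, the LXR genes in 2 of 4 and the SREBP regulators in 2 of 5. The E-box was found in 5 of the 36 members (13.9%, against 9.73% of all genes), namely INSIG1, SCAP, SC5D, ELOVL5 and ABCA1. The sterol regulatory element was found in SREBF2 alone (2.78%, against 1.19%), and the LXR element in none of the members and in 1 protein-coding gene of the table (0.00631%). The members had 1.44 windows per gene and all protein-coding genes 1.40. These counts hold for exact matches to the letters searched in 250 bases. Elements that differ from those letters at any fixed base were not counted. A lack of matches therefore does not show that a gene lacks a sterol regulatory or LXR element. Of the 2 genes with 5 CCAAT boxes, NSDHL had a log2 ratio of 0.44 and MVK one of -0.23, while INSIG1 with 1 box had 0.73.

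**Figure D3:**
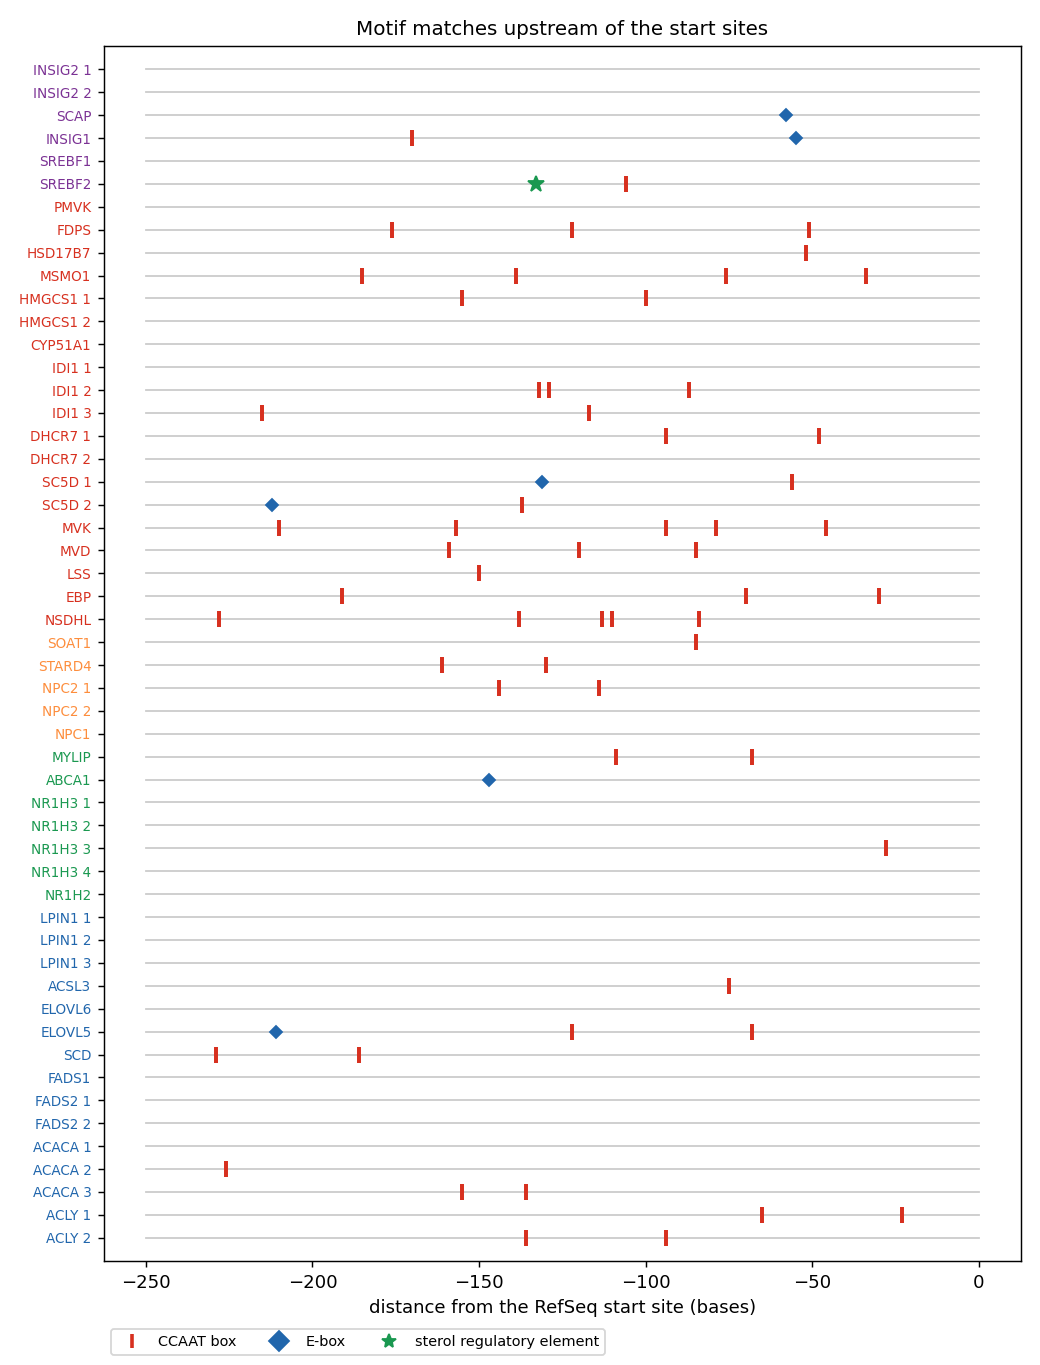
Positions of motif matches (x axis, bases from the RefSeq start site at 0) in the 52 upstream windows of 36 genes (y axis, colored by class, with a number where a gene has several start sites). Red bars are CCAAT boxes, blue diamonds E-boxes and the green star the sterol regulatory element of SREBF2. The rows of cholesterol synthesis genes (red names) carry most of the bars, up to 5 in NSDHL and MVK.

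Of the genes of cholesterol transport and storage, STARD4, SOAT1 and NPC1 stood below the typical gene. The median log2 ratio of the 4 was -0.50, which is 0.25 below that of all genes, and 3 of the 4 lay below that median. STARD4, a carrier of sterols between membranes, gave 242 with HOXD9 siRNA-2 and 387 with control siRNA on its only probe set, a log2 ratio of -0.68. SOAT1, which esterifies cholesterol for storage in droplets, gave 241 with HOXD9 siRNA-2 against 357 with control siRNA on its brightest probe set. The next 2 gave 153 with HOXD9 siRNA-2 against 246 with control siRNA, then 54.8 with HOXD9 siRNA-2 against 79.2 with control siRNA. All 3 were dimmer with HOXD9 siRNA-2, with log2 ratios of -0.56, -0.69 and -0.53, and all lay below the median of all genes. NPC1, which exports cholesterol from lysosomes, gave 966 with HOXD9 siRNA-2 and 1305 with control siRNA on its brightest probe set, a log2 ratio of -0.43. Its other probe sets above the filter gave -0.44 and -0.20, and the latter lay 0.05 above the median of all genes. NPC2, the soluble partner of NPC1, gave 1791 with HOXD9 siRNA-2 and 2090 with control siRNA, a log2 ratio of -0.22 that is 0.03 above the median of all genes. After centering STARD4 stood at -0.38, SOAT1 at -0.26, NPC1 at -0.13 and NPC2 at 0.08. STARD4 and INSIG1 are both known as SREBP targets, and they lay on opposite sides of the typical gene. The STARD4 value, 0.43 below the median of all genes, rests on 1 probe set. Of the cholesterol synthesis genes above the filter, 12 lay above that median and 2 below it. Whether SREBP activity differed was not tested.

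The LXR genes held the lowest ratio of the whole set and the lowest class median. MYLIP, also called IDOL, is a ubiquitin ligase that marks lipoprotein receptors for degradation. Its brightest probe set gave 25.0 with HOXD9 siRNA-2 and 53.3 with control siRNA, a log2 ratio of -1.09, and the next gave 26.4 with HOXD9 siRNA-2 and 50.4 with control siRNA, or -0.93. Both signals with HOXD9 siRNA-2 were not far above the background of 18.4, and both ratios lay below the median of all genes by more than the probe-set spread of 0.41. Under the filter 3 more MYLIP probe sets read within the background with HOXD9 siRNA-2 and above it with control siRNA. They were at least 1.63-fold, 1.32-fold and 1.08-fold lower, or 1.32-fold and 1.07-fold after centering with the last bound under 1. The sixth probe set was within the background on both arrays. After centering the 2 brightest stood at -0.79 and -0.63, short of 2-fold.

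ABCA1, the transporter that loads cholesterol onto apolipoproteins, was measured at high signal. It gave 648 with HOXD9 siRNA-2 and 968 with control siRNA on one probe set, and 561 with HOXD9 siRNA-2 and 1029 with control siRNA on the other above the filter. The log2 ratios were -0.58 and -0.88, or -0.28 and -0.58 after centering. Both probe sets were dimmer with HOXD9 siRNA-2 under either scale. The first, which is the brightest, lay 0.33 below the median of all genes, within the probe-set spread of 0.41. The second lay 0.63 below that median. The other 2 ABCA1 probe sets stayed within the background. NR1H3, which encodes LXRα, gave 49.7 with HOXD9 siRNA-2 and 62.5 with control siRNA, a log2 ratio of -0.33, or -0.03 after centering, close to the typical gene. The median of these 3 genes lay 0.33 below that of all genes. The arrays read RNA pooled from all cells of a culture, so that fewer expressing cells and less RNA per cell cannot be told apart.

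The upstream windows of ABCA1 and MYLIP are shown because these were the LXR targets with the lowest ratios. The ABCA1 window (chr9:104928156-104928405, minus strand) holds an E-box at 147 bases and the MYLIP window (chr6:16128836-16129085, plus strand) 2 CCAAT boxes, at 109 and 68 bases. Only exact matches to the searched letters are marked. An LXR element that differs from those letters would not be marked, so the windows cannot be read as lacking one.
ABCA1: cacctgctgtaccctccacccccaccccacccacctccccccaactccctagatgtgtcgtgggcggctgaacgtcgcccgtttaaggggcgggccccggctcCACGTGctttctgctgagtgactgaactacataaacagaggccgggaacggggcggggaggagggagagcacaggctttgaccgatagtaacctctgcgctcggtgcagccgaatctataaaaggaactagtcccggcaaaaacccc
MYLIP: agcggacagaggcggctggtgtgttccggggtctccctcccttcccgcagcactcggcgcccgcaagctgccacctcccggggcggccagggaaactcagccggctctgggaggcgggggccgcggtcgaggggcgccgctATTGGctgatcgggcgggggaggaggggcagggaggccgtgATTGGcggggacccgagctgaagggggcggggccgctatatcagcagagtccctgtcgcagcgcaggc

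Fatty acid synthesis genes stood near or slightly above the typical gene. Of the 8 above the filter, 7 (87.5%) had a ratio above the median of all genes. A log2 ratio above 0 was found in 5 (62.5%), against 16.8% of all genes. Their median was 0.05, or 0.30 above that of all genes, and none passed 2-fold. FADS2, the delta-6 desaturase of polyunsaturated fatty acids, had the highest ratio, with 59.6 with HOXD9 siRNA-2 and 43.9 with control siRNA, a log2 ratio of 0.44. Its other probe set stayed within the background. ACACA, the acetyl-CoA carboxylase that makes malonyl-CoA, gave 274 with HOXD9 siRNA-2 and 247 with control siRNA, a log2 ratio of 0.15, and 0.05 on its dimmer probe set. SCD, the desaturase that makes oleate, was bright and nearly equal on the 2 arrays. It gave 1378 with HOXD9 siRNA-2 and 1350 with control siRNA on its brightest probe set, and its 4 probe sets ran from -0.10 to 0.16. All 4 SCD values lay above the median of all genes, by 0.15 to 0.41.

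ELOVL5, an elongase of polyunsaturated fatty acids, gave 1662 with HOXD9 siRNA-2 and 1523 with control siRNA, a log2 ratio of 0.13. Its second probe set above the filter gave 24.2 with HOXD9 siRNA-2 and 36.1 with control siRNA, or -0.58. The ELOVL5 probe sets thus lay on opposite sides of the median of all genes, at 0.38 above and 0.33 below it. The brighter one had signals far above the background. LPIN1, a phosphatidate phosphatase of glycerolipid synthesis, gave 463 with HOXD9 siRNA-2 and 442 with control siRNA, or 0.07 on the log2 scale, and the 3 probe sets of LPIN1 ran from -0.13 to 0.09. FASN, the fatty acid synthase, stood at -0.13 and ELOVL6, an elongase of saturated chains, at -0.12. One ELOVL6 probe set stood apart at -0.95, with signals of 53.1 with HOXD9 siRNA-2 and 102 with control siRNA. ACLY, which supplies cytosolic acetyl-CoA from citrate, gave 1760 with HOXD9 siRNA-2 and 2230 with control siRNA, a log2 ratio of -0.34. Its 3 probe sets ran from -0.38 to -0.34, and it was the only one of the 8 below the median of all genes, by 0.09.

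**Figure D4:**
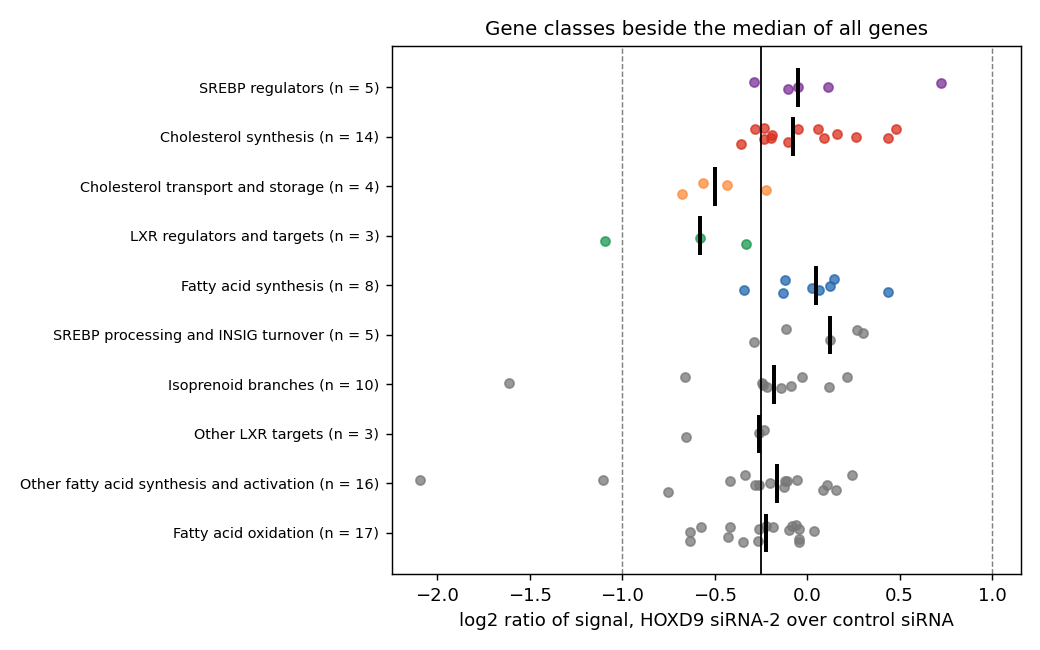
Each point is the log2 ratio of 1 gene (x axis, HOXD9 siRNA-2 divided by control siRNA, brightest probe set) in the 5 classes of members (colored) and in 5 lists of neighboring pathways (gray), with the number of genes above the filter beside each name. Black bars are medians, the solid line is the median of all genes (-0.25) and dashed lines mark 2-fold. The bars of cholesterol and fatty acid synthesis lie to the right of the line, at -0.08 and 0.05, and those of transport and storage and of LXR genes to its left, at -0.50 and -0.58.

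Genes next to these pathways were read from lists of their own. Of 5 genes of SREBP processing and INSIG turnover, 4 lay above the median of all genes, and none passed 2-fold. MBTPS2, the site-2 protease that releases active SREBP, gave 1097 with HOXD9 siRNA-2 and 890 with control siRNA, a log2 ratio of 0.30, and 0.05 on its dimmer probe set above the filter. RNF139, a sterol-responsive ubiquitin ligase, gave 370 with HOXD9 siRNA-2 and 307 with control siRNA, or 0.27. Both lay more than 0.5 above the median of all genes on their brightest probe set. Of 3 other LXR targets above the filter 2 lay below that median. SMPDL3A, a phosphodiesterase raised by LXR, gave 126 with HOXD9 siRNA-2 and 198 with control siRNA, a log2 ratio of -0.65, whereas PLTP stood at -0.23 and LPCAT3 at -0.26, within 0.02 of the typical gene. ABCG1, a further cholesterol exporter, was within the background on all 4 probe sets of both arrays.

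Of 10 genes that use farnesyl diphosphate or attach isoprenoids, 8 lay above the median of all genes. Most of these distances were small, and the median log2 ratio of the list, -0.18, was 0.07 above that of all genes. COQ2, GGPS1 and PGGT1B were above it by only 0.004, 0.01 and 0.03. RABGGTB, the beta subunit of the transferase that modifies RAB proteins, gave 795 with HOXD9 siRNA-2 and 685 with control siRNA, a log2 ratio of 0.21. FNTB, the beta subunit of farnesyltransferase, read 12.5 with HOXD9 siRNA-2 and 38.3 with control siRNA on its only probe set. Since 12.5 lies within the background, it was at least 2.08-fold lower, or 1.69-fold after centering. PDSS1, which makes the side chain of coenzyme Q, gave 206 with HOXD9 siRNA-2 and 325 with control siRNA, a log2 ratio of -0.66. FNTB passed the filter on mean signal through the control siRNA array alone. No other gene of this list differed by more than 2-fold on its brightest probe set in the deposited signals. PGGT1B, a subunit of a further enzyme that attaches isoprenoids, gave -0.22 on its brightest probe set and -1.54 on its dimmest, with signals there of 19.7 with HOXD9 siRNA-2 and 57.3 with control siRNA.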

How the data were processed

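RNA from U87 cells was hybridized to Affymetrix U133 Plus 2.0 arrays. The deposited files hold 1 linear signal intensity for each probe set of each array, made by the authors. The submitters' processing notes name GCOS and the paper's methods GeneSpring. Not given in the sources used here were the scaling target and any detection call. From 54613 probe sets (62 controls set aside), 41091 had 1 gene in the platform annotation, 1801 several and 11721 were not listed. Entrez numbers of 41037 probe sets matched RefSeq genes (GRCh38.p14), from which symbols and upstream sequences came. A gene took its brightest probe set with a mean signal of at least 19.8. A signal at or under 18.4 counts as background, and the fold is then given as at least the other signal over 18.4. Differences over 2-fold, the study's own threshold, were counted.

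The members and lists were chosen with earlier results of these data known. Signals were given for INSIG1, INSIG2, SREBF1, SREBF2 and SCAP, for the genes of each class farthest from the median (6 of cholesterol synthesis, 5 of fatty acid synthesis, otherwise 3), and for members past 2-fold or with probe sets over 0.4 from the median on both sides. These are 22 genes. Values of others were added after they were seen. Alternatives were centering, quantile normalization, loess (fraction 0.3), no filter, a stricter filter (75.7, the 70th percentile), raising signals to a floor of 18.4, no _x_at or _s_at probe sets, and averaging probe sets. The procedure was tested on simulated data. The number of arrays limits the precision. Python 3.11.15, numpy 2.4.6, pandas 2.3.3, scipy 1.17.1, statsmodels 0.14.6 and matplotlib 3.10.9 were used.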

Additional observations from a re-analysis of the deposited data

How the results depend on the processing

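No paired analysis was possible because each condition has 1 array, and for the same reason no replicate could be left out. The number of members past 2-fold was 1 as deposited, and 0 with quantile normalization, loess, the filter at the 70th percentile (75.7) or without _x_at and _s_at probe sets. MYLIP was not measured under the last 2, where its probe sets above the filter are left out. The number was 2 with no filter, through MVD, whose control siRNA signal lay within the background. With centering it was again 1, but the gene was INSIG1 at 1.03 and MYLIP stood at -0.79. Members above the median of all genes numbered 23 to 25 of 31 to 35 under the other alternatives and 17 of 25 without _x_at and _s_at probe sets. The class medians kept their side of the median of all genes under the 8 alternatives. Centering adds 1 constant to every log2 ratio, so it could change neither these distances nor the counts above that median. No filter and the floor left the brightest member probe sets above the filter as they were, so they could change little. The distances were 0.15 to 0.20 for cholesterol synthesis, 0.21 to 0.37 for fatty acid synthesis and 0.19 to 0.27 for SREBP regulators. They were -0.26 to -0.20 for transport and storage and -0.45 to -0.18 for LXR genes. The LXR value rests on ABCA1 alone with the stricter filter and on ABCA1 and NR1H3 without _x_at and _s_at probe sets. Without those probe sets the fatty acid synthesis value, 0.37, rests on ACACA, ELOVL5, ELOVL6 and LPIN1. FADS2, the highest of that class, is also left out by the stricter filter. Without _x_at and _s_at probe sets NSDHL stood at -0.19 and IDI1 at -0.57. INSIG1 ranged from 0.72 to 1.03. Among all genes 60 were higher and 575 lower past 2-fold as deposited, against 136 and 268 after centering, 146 and 260 after quantile normalization, 144 and 261 after loess, 1766 and 3114 with no filter, 0 and 210 with the stricter filter and 29 and 481 with the floor. The cause was not tested. Of the 15 member probe sets under the filter, 8 lay within the background on both arrays and give no fold.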

Other observations

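Genes of fatty acid oxidation, the breakdown route in mitochondria, stood close to the typical gene. All 17 passed the filter, 9 lay above the median of all genes and 8 below it, and their median of -0.22 was 0.03 above that of all genes. On the brightest probe sets, none of the 17 differed by more than 2-fold. SLC25A20, the carnitine carrier, gave 134 with HOXD9 siRNA-2 and 208 with control siRNA, a log2 ratio of -0.63. HADH, a dehydrogenase of the cycle, gave 488 with HOXD9 siRNA-2 and 758 with control siRNA on its brightest probe set, also -0.63, but -0.26 and -0.09 on its other 2.

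Of 16 further genes of fatty acid synthesis, activation and glycerolipid assembly, 9 lay above the median of all genes and 2 (12.5%) were lower by more than 2-fold, against 4.95% of all genes. ACSL4, which activates arachidonic acid, gave 91.7 with HOXD9 siRNA-2 and 391 with control siRNA on its brightest probe set, a log2 ratio of -2.09, the lowest of any gene in the lists used here. Its other probe sets gave 48.5 with HOXD9 siRNA-2 and 46.5 with control siRNA, a log2 ratio of 0.06, and 27.3 with HOXD9 siRNA-2 and 50.1 with control siRNA, or -0.88. AGPAT2, an acyltransferase of phosphatidic acid synthesis, gave 29.1 with HOXD9 siRNA-2 and 62.5 with control siRNA, a log2 ratio of -1.10. After centering ACSL4 stood at -1.79 and AGPAT2 at -0.80.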
